A study of Mus musculus with 35 samples.

Results

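Striatal RNA of 11 mice that carried both the HttQ111 allele and a neuronal deletion of Hdac2 was compared with that of 8 mice that carried neither, which is 19 of the 35 libraries in the series. The members were chosen by the genotype in the sample labels, HttQ111/+ Hdac2-/- against Htt+/+ Hdac2+/+, and are called HttQ111/+ Hdac2 KO and Htt+/+ Hdac2 WT here. The other 16 libraries, from 9 Htt+/+ Hdac2 KO and 7 HttQ111/+ Hdac2 WT mice, entered the same fit and gave the changes seen with each genotype on its own. The comparison asks which functions carry the joint change, and whether that change equals the sum of the changes seen with each genotype singly.

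HttQ111 is a knock-in allele with an expanded CAG repeat in the mouse huntingtin gene, present in every cell and heterozygous here, with 110 to 144 repeats in the HttQ111/+ Hdac2 KO mice. Hdac2 was removed by a D9-Cre transgene, which the regulatory sequence of Ppp1r1b (the gene for DARPP-32) switches on in medium-spiny neurons at 5 to 6 weeks of age, from 2 floxed alleles, so other striatal cell types kept Hdac2. All Hdac2 KO mice carried Cre and no Hdac2 WT mouse did, so the deletion and the transgene cannot be told apart. The Htt+/+ Hdac2 WT mice carried floxed alleles without Cre, and 2 of them, both of ID series A (the letter that opens the mouse's identifier), carried only 1 floxed allele. The floxed line came from a mixed C57BL/6 and 129 background and was then crossed to C57BL/6J. The control mice were 21.7 to 22.7 weeks old, 5 male and 3 female, and the HttQ111/+ Hdac2 KO mice 21.9 to 23 weeks old, 8 male and 3 female. A further male control was left out by the authors for DNA in its library.

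The medium-spiny neuron is the main projection neuron of the striatum. Its indirect-pathway form makes enkephalin and carries dopamine D2 and the adenosine receptor Adora2a, and its direct-pathway form makes substance P and dynorphin and carries dopamine D1 receptors. These neurons are the most vulnerable cells in Huntington's disease. HDAC2 removes acetyl groups from histones within the Sin3, NuRD and CoREST corepressor complexes, in which the paralog HDAC1 also serves.

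Each library held 54762608 to 59722546 gene counts in the control group and 52718817 to 77867348 in the HttQ111/+ Hdac2 KO group. Of 32863 usable genes, 17088 passed the filter on low counts, which asked for 6 counts in every library of the controls or in every library of the HttQ111/+ Hdac2 KO mice. Levels are given as CPM, counts scaled to the library total, after TMM scaling, changes as log2 fold changes from the fit with 9 surrogate variables, and a gene is called when its adjusted p is under 0.05. RNA was extracted on 24, 25 and 27 May for the controls and between 25 May and 3 June for the HttQ111/+ Hdac2 KO mice, with 3 controls and 1 HttQ111/+ Hdac2 KO mouse on the only shared date. Values within that date and within ID series V, which holds 5 mice of each group, are given beside the leading results. In whole striatum, fewer cells of a type and less RNA per cell cannot be told apart.

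Hdac2 itself (chromosome 10, 36974544 to 37001611, GRCm38) lay at 97.6, 104 and 107 CPM (lowest, median, highest) in the controls and at 89.5, 95.3 and 101 in the HttQ111/+ Hdac2 KO mice. The groups overlapped, and the log2 fold change was -0.10 (SE 0.03, adjusted p = 0.0108). Counts were taken over the whole gene, not the floxed part, and other cell types kept the gene, so this value checks the labels only weakly. Hdac1 lay at 5.32, 5.91 and 6.83 CPM in the controls and at 8.65, 9.37 and 11 in the HttQ111/+ Hdac2 KO mice. Every HttQ111/+ Hdac2 KO library was above every control for Hdac1, with a log2 fold change of 0.58 (SE 0.06, adjusted p = 5.6e-08). The Hdac1 change was 0.54 with Hdac2 loss alone and 0.09 with the HttQ111 allele alone. Htt lay at 192, 199 and 213 CPM in the controls and at 120, 171 and 184 with both genotypes. The groups did not overlap for Htt either, and it fell by 0.22 on the log2 scale (SE 0.04, adjusted p = 6.3e-05).

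Across all tested genes, 3627 were called in the joint comparison, or 21.2%. They split into 1747 that rose (10.2%) and 1880 that fell (11%). Hdac2 loss alone called 1554 up (9.09%) and 1521 down (8.90%), and the HttQ111 allele alone 37 up (0.217%) and 40 down (0.234%), with the same 8 control libraries in all 3 comparisons. Higher in every HttQ111/+ Hdac2 KO library than in any control were 264 genes (1.54%), and lower in every one were 306 (1.79%); 260 and 302 of these were called. Most called changes were small. The median size was 0.28 among genes that rose and 0.20 among those that fell on the log2 scale, and 133 rose and 52 fell by 1 or more. With extraction date replacing the surrogate variables 798 genes were called, and with ID series replacing them 4617. Leaving out both series A controls gave 2380 called genes with the surrogate variables of the full set kept and 4975 with surrogate variables estimated anew, so the direction of that step depended on them; values without these controls are from the first of these fits unless stated.

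Some calls below rest on few libraries. Without control replicate 2, 2445 genes were called, and among the genes named here Rps2-ps13, Upb1, Slc35d3, Ikzf2, Gabrr2, Gabrb2, Chrm5, Chrm1, Htr5a, Htr1f, Npbwr1, Trib1, Ndufa8, Sirt5, Kat2b, Kat2a, Dlx5, Phox2a, Msh3, Per2, Gfap, Esam, Clic6 and Rspo1 were no longer called. Jund, Slc7a10, Col19a1, Tshz2, Pifo and Drd1a lost the call without 1 or more single other libraries. With extraction date as the covariate 89 of the 163 genes examined lost the call, Htt and Penk among them. As the compared groups share a single extraction date, that fit can hardly tell date from genotype, and a call lost there cannot be assigned to either. Since counts were taken over whole genes, Upb1, Htr1b, Adcy9, Smpd3, Cbx7, Msh3 and Slc7a10, which overlap another counted gene, are also uncertain; the partners of other overlapping genes lay at 2.79 CPM or below unless named as uncertain where they appear.

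Promoters of 6 genes are shown first, since they belong to genes the results turn on: 4 of the genes that rose most, 1 of those that fell most, and Fibcd1, the gene with an adjusted interaction p under 0.05 in the fit of all libraries. Each is 300 bases of RefSeq sequence (GRCm38.p6), 250 before and 50 after the gene's start, with every CG in capitals.
Frem3, chr8:80610789-80611088, plus strand: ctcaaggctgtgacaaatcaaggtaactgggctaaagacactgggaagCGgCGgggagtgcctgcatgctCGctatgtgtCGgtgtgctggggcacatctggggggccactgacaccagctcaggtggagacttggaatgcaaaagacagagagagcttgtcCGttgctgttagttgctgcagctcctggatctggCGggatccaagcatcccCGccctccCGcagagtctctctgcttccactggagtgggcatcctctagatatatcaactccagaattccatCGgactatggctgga
Wdr86, chr5:24730631-24730930, minus strand: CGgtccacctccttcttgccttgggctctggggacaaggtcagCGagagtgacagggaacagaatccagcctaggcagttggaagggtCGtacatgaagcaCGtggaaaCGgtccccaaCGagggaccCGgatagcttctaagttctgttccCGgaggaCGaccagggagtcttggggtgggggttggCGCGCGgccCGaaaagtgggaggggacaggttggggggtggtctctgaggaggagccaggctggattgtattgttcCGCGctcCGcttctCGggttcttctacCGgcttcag
Chrnb4, chr9:55048495-55048794, minus strand: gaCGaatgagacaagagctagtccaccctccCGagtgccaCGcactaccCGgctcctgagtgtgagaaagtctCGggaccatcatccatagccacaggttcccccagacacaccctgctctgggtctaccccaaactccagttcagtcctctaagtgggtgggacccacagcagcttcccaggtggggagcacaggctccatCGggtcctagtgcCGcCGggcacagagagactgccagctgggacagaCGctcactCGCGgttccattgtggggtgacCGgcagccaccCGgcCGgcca
Vwa5b2, chr16:20589332-20589631, plus strand: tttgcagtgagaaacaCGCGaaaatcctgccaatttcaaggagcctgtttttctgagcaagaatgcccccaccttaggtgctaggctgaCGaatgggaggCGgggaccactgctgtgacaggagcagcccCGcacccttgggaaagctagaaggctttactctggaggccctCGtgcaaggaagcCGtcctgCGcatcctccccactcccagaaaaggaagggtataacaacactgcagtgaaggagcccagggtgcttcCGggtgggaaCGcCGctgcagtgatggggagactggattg
Ptpn7, chr1:135132450-135132749, plus strand: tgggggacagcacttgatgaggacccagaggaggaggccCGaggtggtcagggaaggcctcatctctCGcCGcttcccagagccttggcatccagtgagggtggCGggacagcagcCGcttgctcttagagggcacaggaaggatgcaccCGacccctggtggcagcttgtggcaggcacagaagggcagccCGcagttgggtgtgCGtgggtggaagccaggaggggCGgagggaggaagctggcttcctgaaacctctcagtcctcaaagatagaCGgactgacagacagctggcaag
Fibcd1, chr2:31845956-31846255, minus strand: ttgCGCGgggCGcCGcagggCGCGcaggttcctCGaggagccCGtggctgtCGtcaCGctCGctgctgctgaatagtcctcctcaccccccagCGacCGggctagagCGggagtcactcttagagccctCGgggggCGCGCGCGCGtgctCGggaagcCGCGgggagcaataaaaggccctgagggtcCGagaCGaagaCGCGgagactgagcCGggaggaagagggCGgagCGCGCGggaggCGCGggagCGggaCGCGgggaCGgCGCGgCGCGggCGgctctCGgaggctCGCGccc
CG was searched on the printed strand and reads the same on the other. The counts were 9 in Frem3, 18 in Wdr86, 14 in Chrnb4, 11 in Vwa5b2, 10 in Ptpn7 and 46 in Fibcd1, against a median of 7 over the 32851 promoters in the table (quartiles 3 and 20), of which 94.6% hold at least 1. Over the 11553 tested genes with an entry the median was 20 (quartiles 11 and 28), so that of the 6 only Fibcd1 was above the median of tested genes. Only 72.0% of the genes called up and 69.3% of those called down had an entry, so a comparison of promoters over all called genes is void and none is given.

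The largest rises were in genes that the control striatum barely expressed. Frem3, which encodes an extracellular matrix protein of the Fras1 family (chromosome 8, 80611080 to 80695356), lay at 0.157, 0.308 and 0.504 CPM in the controls and at 2.40, 3.28 and 4.31 with both genotypes. No HttQ111/+ Hdac2 KO library came near a control, and the log2 fold change was 3.34 (SE 0.30, adjusted p = 1.7e-09), a 10.1-fold rise. Wdr86, a WD-repeat gene, went from 0.363, 0.514 and 0.726 CPM to 1.99, 4.23 and 6.59, a log2 fold change of 2.77 (SE 0.21, adjusted p = 7.7e-11). Chrnb4, the beta4 subunit of the nicotinic acetylcholine receptor, went from 0.474, 0.838 and 1.18 CPM to 3.49, 4.53 and 9.46, and changed by 2.71 (SE 0.24, adjusted p = 9.7e-10). These 3 genes did not overlap between the groups. Within the shared extraction date the log2 ratios of group means were 3.65, 3.19 and 2.33, and within series V 2.79, 2.91 and 2.90.

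The other 9 genes completed the 12 largest rises once genes below 1 on the log2 CPM scale are set aside. They were H2-Q2, an MHC class I gene (2.60), Pnmt, the enzyme that makes adrenaline (2.27), Vill, a villin-like actin-binding protein (2.21), Stag3, a cohesin subunit of meiosis (1.85), Gm13205 (1.73), Vwa5b2 (1.57), Nlrp10, an NLR-family gene (1.56), Afmid, an enzyme of tryptophan breakdown (1.44) and Crb1, a cell polarity gene (1.4). Of the 12, Nlrp10 and Crb1 overlapped between the groups and the other 10 did not. Vwa5b2 had the highest count level of them, with 7.36, 8.85 and 11.6 CPM in the controls and 20.6, 29.4 and 32.6 with both genotypes. H2-Q2 shares sequence with other MHC genes, and Gm13205 and Afmid overlap Casz1 and Gm20708, so these 3 are uncertain. Pnmt lies 29.2 kb from Ppp1r1b, whose genomic sequence drives the Cre transgene.

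**Figure D1:**
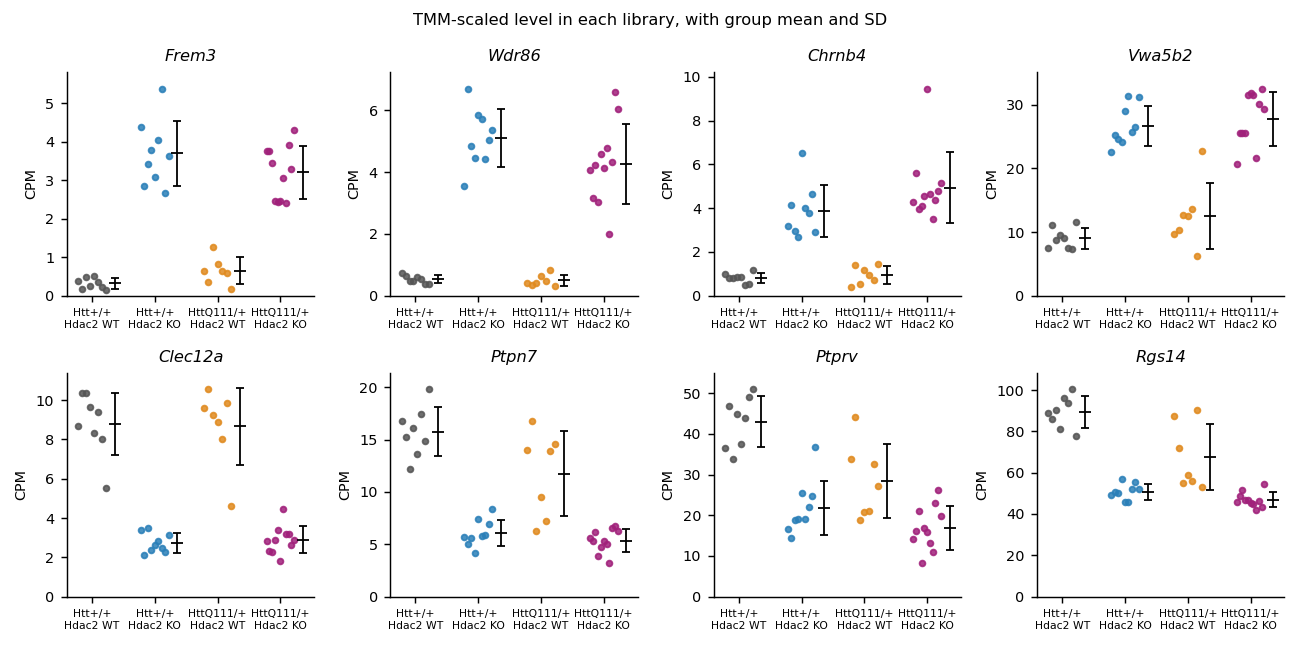
TMM-scaled CPM (vertical axis, from 0) of 8 genes in each library of the 4 genotype groups, 1 point per mouse, with the group mean and SD as the bar beside the points. For Frem3, Wdr86, Chrnb4 and Vwa5b2 (top) and for Clec12a, Ptpn7, Ptprv and Rgs14 (bottom) no HttQ111/+ Hdac2 KO library overlaps an Htt+/+ Hdac2 WT library, and the Htt+/+ Hdac2 KO libraries lie near the HttQ111/+ Hdac2 KO libraries.

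Among the 12 largest falls at that level, 7 genes were lower in every HttQ111/+ Hdac2 KO library than in any control. Clec12a, a C-type lectin receptor known from myeloid cells (chromosome 6, 129342691 to 129364416), lay at 5.53, 9.06 and 10.4 CPM in the controls and at 1.80, 2.90 and 4.45 with both genotypes. It fell by 1.88 on the log2 scale (SE 0.13, adjusted p = 8.7e-12), with log2 ratios of -1.36 on the shared date and -1.54 in series V. A pair of protein tyrosine phosphatase genes 156 bases apart on chromosome 1 fell together. Ptprv went from 33.7, 44.4 and 51 CPM to 8.26, 16.1 and 26.2, a log2 fold change of -1.50 (SE 0.08, adjusted p = 3.4e-13). Ptpn7 (135132725 to 135144899) went from 12.2, 15.7 and 19.8 CPM to 3.23, 5.31 and 6.70, a log2 fold change of -1.62 (SE 0.13, adjusted p = 2.2e-10). Ptprv was not called with extraction date as the covariate (adjusted p = 0.096).

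The other genes without overlap were Serpinb1b, a serine protease inhibitor (-1.65), Mas1, an angiotensin peptide receptor that overlaps the noncoding Airn (-1.53), Myh7b, a myosin heavy chain (-1.39), and Gm26673 (-1.77), an uncertain value because the gene lies across Kcna6. Gpx6, a glutathione peroxidase, fell by 1.72 (SE 0.46, adjusted p = 0.00636) and Cd72, which overlaps Tesk1 and is uncertain, by 1.26, both with overlapping groups. In Gm10260 and Rps2-ps13 the fall rested on some libraries. Gm10260 lay at 22.8 and 23.9 CPM in both series A controls and at 24.0 in a series A Htt+/+ Hdac2 KO mouse, against at most 1.34 in the other controls, and its log2 fold change of -2.08 became -0.07 in series V. Rps2-ps13, a ribosomal protein pseudogene, had a log2 fold change of -3.80 overall and -0.13 in series V, and lay above 50 CPM in some libraries of both groups and below 3 CPM in the others. What sets these levels was not tested. With extraction date as the covariate, the 12 rises stayed called, and of the 12 falls Clec12a, Gpx6, Serpinb1b, Ptpn7, Mas1 and Myh7b did.

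Falls were more frequent among genes with high counts and rises among genes with moderate counts. Among the 1659 genes with an average level of at least 7 on the log2 CPM scale (a count level, not per length), 557 fell (33.6%) and 110 rose (6.63%). Among the 1607 genes between 2 and 3 on that scale, 81 fell (5.04%) and 197 rose (12.3%). The share of called genes that fell was thus 83.5% in the highest class and 29.1% in the lower one, and the median joint change over all genes of the classes was -0.05 and 0.03. The same order held without surrogate variables, with DESeq2 size factors, with limma-voom, in series V, in males, without the series A controls and with extraction date as the covariate. Called genes had a median span of 25.8 kb for those that rose and 28.0 kb for those that fell, against 20.1 kb over all tested genes. The gene lists below were not matched for count level, and how far a list's share of falls follows its level was not tested.

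The medium-spiny neuron genes were the group with the highest share of falls. Of 44 tested genes of medium-spiny neuron identity and DARPP-32 signalling, 29 fell, 2 rose and 13 were not called, with a median joint log2 fold change of -0.24 beside -0.0027 over all tested genes. That is 65.9% called down, against 11% of all genes. In 12 of the 44 every HttQ111/+ Hdac2 KO library lay below every control, as in 1.79% of all genes. The summed level of the list was 28038, 31667 and 33468 CPM in the controls (lowest, median, highest) and 22683, 26136 and 29062 with both genotypes, with overlap. The number that fell was 31 in series V, 27 in males, 26 without the series A controls and 7 with extraction date as the covariate.

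Rgs14, a brake on G-protein signalling, fell most in that list. It lay at 77.7, 89.7 and 100 CPM in the controls and at 41.8, 46.3 and 54.5 with both genotypes, a log2 fold change of -0.95 (SE 0.09, adjusted p = 3.1e-09). The groups did not overlap, and the log2 ratio was -1.0 on the shared extraction date and -1.03 in series V. Scn4b, the beta4 subunit of the sodium channel, lay at 2280, 2641 and 3026 CPM in the controls and at 1171, 1668 and 2106 with both genotypes, and fell by 0.62 (SE 0.10, adjusted p = 3.3e-05). Ace, which encodes angiotensin-converting enzyme, went from 36.2, 45.4 and 59.0 CPM to 17.8, 25.2 and 30.3, a log2 fold change of -0.76 (SE 0.12, adjusted p = 2.8e-05). Neither gene overlapped between the groups.

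Other members of the list that fell were the cannabinoid receptor Cnr1 (-0.52), the striatal phosphatase Ptpn5 (-0.42), the phosphodiesterases Pde10a (-0.38) and Pde1b (-0.35), the calcium release channel Itpr1 (-0.31), the striatal adenylyl cyclase Adcy5 (-0.22) and the transcription factors Rarb (-0.37), Meis2 (-0.22) and Bcl11b (-0.19). The rises were Gng7, a G-protein gamma subunit (0.19), and Ikzf2, a zinc-finger factor (0.34). Ppp1r1b itself, the source of the Cre promoter, changed by 0.03 (adjusted p = 0.73). Its median was 1908.5 CPM (series A and Z) and 1778 CPM (series V) in the Htt+/+ Hdac2 KO mice, against 1570 and 1577 in the controls. In the HttQ111/+ Hdac2 WT mice it was 1314 CPM under 120 repeats and 1079.5 CPM at 120 or more. The transgene holds some exons of Ppp1r1b, per the study's methods, and whether its reads enter these counts was not tested.

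Markers of the 2 forms of medium-spiny neuron were examined separately. Of 10 tested indirect-pathway markers 5 fell and 1 rose (median -0.17), and of 10 direct-pathway markers 2 fell and 2 rose (median 0.10). Over all tested genes 11% fell and 10.2% rose. The difference between the lists was not tested. The direct-pathway median was -0.06 in series V and -0.05 with extraction date, and its falls numbered 0 in males and without HttQ111/+ Hdac2 KO replicate 8; with extraction date neither list had a call. Penk, the enkephalin precursor, lay at 1780, 1947 and 2072 CPM in the controls and at 1139, 1520 and 1729 with both genotypes. No library of the second group reached the first, and Penk fell by 0.53 (SE 0.10, adjusted p = 2.1e-04). Adora2a, an adenosine receptor, lay at 361, 420 and 476 CPM and at 255, 371 and 434, and fell by 0.30 (SE 0.08, adjusted p = 0.00966) with overlapping groups. The dopamine receptor Drd2 fell by 0.27 and the orphan receptor Gpr6 by 0.29. Of the direct-pathway genes, Tac1, the substance P precursor, rose by 0.32 (SE 0.05, adjusted p = 6.4e-06), from 278, 301 and 334 CPM to 324, 359 and 441, and Gpr149, an orphan receptor, by 0.54. The dopamine receptor Drd1a fell by 0.16 (SE 0.05, adjusted p = 0.0195), a call lost without HttQ111/+ Hdac2 KO replicate 8. Pdyn, the dynorphin precursor, changed by 0.10 (adjusted p = 0.58). On the shared date the log2 ratios of Tac1 and Drd1a were 0.06 and -0.06.

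**Figure D2:**
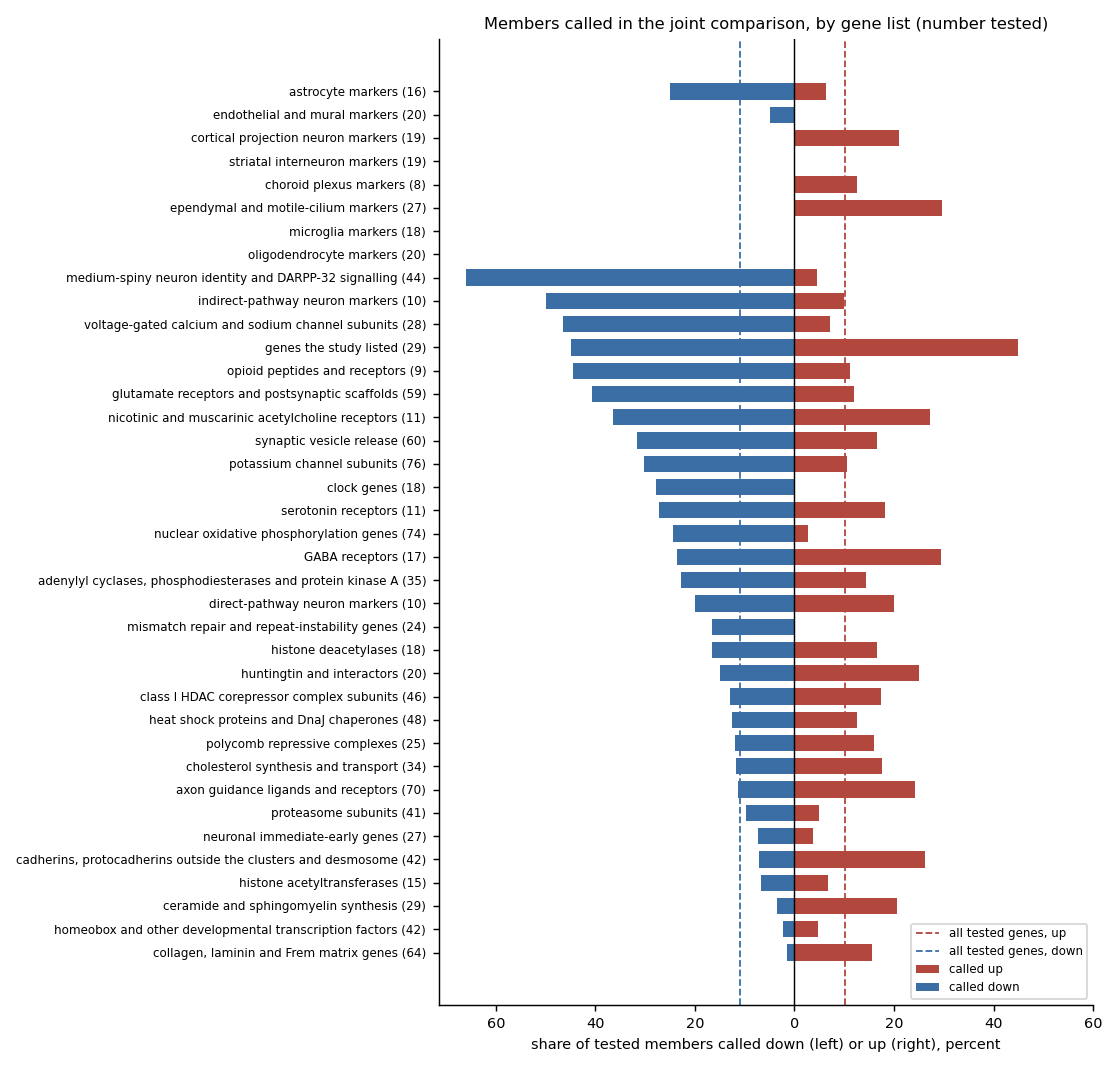
Share of the tested members of each list called down (left) or up (right) in the joint comparison, in percent, with the number tested in brackets; dashed lines mark the shares over all tested genes, 11% and 10.2%. The medium-spiny neuron list reaches 65.9% down, and the oligodendrocyte, microglia and interneuron lists have no called member.

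Genes of the excitatory synapse fell more often than they rose. Of 59 genes for glutamate receptors and postsynaptic scaffolds 24 fell (40.7%) and 7 rose (11.9%), with a median of -0.05. Over all tested genes 11% fell and 10.2% rose. Camk2b, a subunit of the synaptic kinase CaMKII, lay at 1397, 1415 and 1514 CPM in the controls and at 987, 1114 and 1192 with both genotypes, without overlap, and fell by 0.40 (SE 0.04, adjusted p = 8.1e-08). The receptors Grm5 (-0.38) and Grin1 (-0.29) and the scaffolds Homer1 (-0.32) and Shank3 (-0.24) fell as well. Homer2, a paralog of Homer1, rose by 0.45 and the presynaptic receptor Grm8 by 0.77. Grin3b had the lowest value, -1.32, but overlaps Tmem259 and is uncertain. With extraction date as the covariate, 3 genes of the list fell and none rose.

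Of 60 vesicle release genes 19 fell (31.7%) and 10 rose (16.7%), with a median of -0.06, beside 11% and 10.2% over all genes. The falls numbered 9 without control replicate 2, 9 (with 9 rises) without both series A controls, and 6 (with 3 rises) with extraction date as the covariate. Among all tested genes at an average log2 CPM of 7 or more 33.6% fell, and 20.9% of those between 6 and 7 did. Syp, which encodes synaptophysin, lay at 451, 488 and 522 CPM in the controls and at 636, 668 and 726 with both genotypes. Every library of the second group was above the first, and Syp rose by 0.53 (SE 0.03, adjusted p = 1.5e-12). Rab3b, a vesicle GTPase, rose by 0.63 without overlap, and Unc13c (0.48), Doc2a (0.46) and Rph3a (0.37) also rose. The calcium sensor Syt2 fell by 0.76, the vesicle protein Sv2b by 0.44 and the SNARE protein Snap25 by 0.12.

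Receptors for inhibitory and modulatory transmitters moved both ways. Of 17 GABA receptor genes 5 rose (29.4%) and 4 fell (23.5%), beside 10.2% and 11% over all tested genes. Gabra5 went from 14.9, 18.9 and 22.6 CPM to 26.8, 30.8 and 36.9, a log2 fold change of 0.65 (SE 0.07, adjusted p = 3.9e-08), and Gabrd, the delta subunit, from 143, 151 and 159 to 98.9, 113 and 123, a log2 fold change of -0.49 (SE 0.06, adjusted p = 1.9e-07). Both were clear of the controls. Gabra3 (0.62) and Gabra2 (0.42) rose, and Gabrb2 fell (-0.32), though not without control replicate 2. Of 11 acetylcholine receptor genes, Chrnb4, Chrna5 and Chrnb2 rose (27.3%) and Chrm5, Chrna7, Chrna4 and Chrm1 fell (36.4%). Chrna5, which lies 20.4 kb from Chrnb4, lay at 0.213, 0.329 and 0.521 CPM in the controls and at 0.530, 0.961 and 1.69 with both genotypes, and changed by 1.94 (SE 0.25, adjusted p = 9.9e-07). Chrna3, between them, changed by 0.56 (adjusted p = 0.065). Of 11 serotonin receptor genes Htr2a (0.85) and Htr5a (0.31) rose (18.2%) and Htr1f (-0.48), Htr1b (-0.25) and Htr2c (-0.18) fell (27.3%). Of 9 opioid genes Oprl1 (0.45) rose (11.1%), and Npbwr1 (-0.73), Penk, Oprk1 (-0.42) and Oprd1 (-0.25) fell (44.4%). With extraction date as the covariate, 3 GABA genes rose and 1 fell, and 3 acetylcholine genes rose and 2 fell. The serotonin and opioid lists each had 1 rise and 0 falls in that fit.

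Ion channels fell more often than they rose too. Of 76 potassium channel subunits 23 fell (30.3%) and 8 rose, and of 28 voltage-gated calcium and sodium channel subunits 13 fell (46.4%) and 2 rose. Over all tested genes 11% fell and 10.2% rose. The falls in the 2 lists numbered 6 and 3 with extraction date as the covariate. With the HttQ111 mice under 120 repeats alone they numbered 14 and 5. Kcnq3, a subunit of the M-current channel, lay at 377, 431 and 489 CPM in the controls and at 241, 304 and 320 with both genotypes, without overlap, and fell by 0.47 (SE 0.05, adjusted p = 5.9e-09). Cacna1e, an R-type calcium channel, fell by 0.33 and the sodium channel Scn2a1 by 0.28. Against the direction of their list, the inward rectifier Kcnj3 rose by 0.74 (19.9, 22.5 and 25.3 CPM against 30.9, 34.0 and 42.0) and the sodium-activated channel Kcnt2 by 0.76. Neither overlapped between the groups. Of 35 genes for adenylyl cyclases, phosphodiesterases and protein kinase A, 5 rose (14.3%), led by Pde4c (0.58) and Adcy6 (0.45). In the same list 8 fell (22.9%), led by Adcy9 (-0.31) and Adcy1 (-0.24).

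Rises were more frequent than falls among adhesion, guidance and matrix genes. Over all tested genes 10.2% rose and 11% fell. Of 42 cadherin and desmosome genes 11 rose (26.2%) and 3 fell. Among them were the desmosomal genes Dsg2 (1.38), Dsp (1.15) and Dsc2 (0.90), and Cdh18 (0.71), while Cdh7 fell by 0.60. Dsg2 lay at 0.451, 1.69 and 3.33 CPM in the controls and at 2.90, 3.81 and 5.35 with both genotypes, with overlap. Of 70 axon guidance genes 17 rose (24.3%) and 8 fell, with Epha10 highest (0.84; 13.2, 15.8 and 21.8 CPM against 22.6, 28.7 and 36, without overlap) and Sema7a lowest (-0.45). Of 64 collagen, laminin and Frem genes 10 rose (15.6%) and only Col19a1 fell (-0.31). Col11a1 went from 4.55, 4.82 and 6.72 CPM to 8.58, 10.1 and 12.2, a log2 fold change of 1.04 (SE 0.12, adjusted p = 1.7e-07). Of 29 ceramide and sphingomyelin genes 6 rose (20.7%), the ceramide synthase Cers4 most (0.32), and only Smpd3 fell (-0.14). With extraction date as the covariate the cadherin list had 5 rises and 1 fall, the axon guidance list 3 and 2, and the matrix list 7 and 0. In series V these 3 lists had 13 and 3, 13 and 9, and 10 and 4.

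Chromatin lists had shares of calls not far from those over all genes. Of 18 histone deacetylase genes, Hdac1, Hdac6 (0.18) and Sirt3 (0.16) rose and Hdac11 (-0.24), Sirt5 (-0.22) and Hdac2 fell. Of 46 subunits of class I HDAC corepressor complexes 8 rose (17.4%) and 6 fell (13%), beside 10.2% and 11% over all genes, and 3 fell without control replicate 2. Chd3, a remodeller of the NuRD complex, lay at 505, 546 and 574 CPM in the controls and at 593, 750 and 819 with both genotypes, and rose by 0.51 (SE 0.06, adjusted p = 4.9e-08). Brms1, a Sin3 complex subunit, lay at 26.4, 28.8 and 32.5 CPM and at 18.3, 20.8 and 24.7, and fell by 0.50 (SE 0.05, adjusted p = 2.6e-08). Neither overlapped between the groups. Of 15 histone acetyltransferases 1 rose (Kat2b, 0.16) and 1 fell (Kat2a, -0.10), of 25 polycomb genes 4 rose and 3 fell, led by Cbx8 (0.32) and Cbx7 (-0.26). Of 114 homeobox and other developmental regulators only 42 were expressed enough to test, and 2 rose (Phox2a, which overlaps Inppl1 and is uncertain, 1.82, and Dlx5, 0.22) and 1 fell.

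Several household and disease-related groups showed few calls or calls that varied with the libraries used. Of 74 nuclear oxidative phosphorylation genes 18 fell (24.3%), led by Ndufs3 (-0.24), and Ndufa8 (0.12) and Ndufv3 (0.20) rose, but in series V 1 fell and 5 rose. Of 27 immediate-early genes Egr1 (-0.33) and Jund (-0.26) fell and Trib1 (0.39) rose, while in series V 16 fell and none rose and Trib1 was at -0.24. Of 18 clock genes 5 fell and none rose: Per2 (-0.41), Tef (-0.32), Cry2 (-0.26), Npas2 (-0.25) and Hlf (-0.25). Of 24 mismatch repair and repeat-instability genes 4 fell, among them Msh3 (-0.17), and none did with extraction date as the covariate or without the series A controls. Of 20 tested genes in the list of Htt and huntingtin interactors, 5 rose and 3 fell, Htt among the latter. Hap1, a partner of huntingtin in vesicle transport, lay at 66.9, 88.3 and 112 CPM in the controls and at 127, 137 and 167 with both genotypes, without overlap, and rose by 0.56 (SE 0.08, adjusted p = 6.5e-06). The cholesterol list had 6 up (17.6%) and 4 down (11.8%) of 34, near the 10.2% and 11% of all genes and with 1 up without control replicate 2, with Soat1 (0.33) and the regulator Srebf2 (-0.31) at its ends, the proteasome list 2 up and 4 down of 41, with the immunoproteasome subunit Psmb10 at 0.44, and the chaperone list 6 up and 6 down of 48. Without control replicate 2 the chaperone list had 2 up. Of 29 genes the study listed as shared with an earlier HttQ111 data set, 13 rose and 13 fell, and since these were picked partly on the same libraries their counts are not independent evidence.

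Markers of other cell types moved in few cases. No oligodendrocyte (20), microglia (18) or interneuron (19) marker was called, 1 of 20 endothelial and mural markers fell (Esam, -0.22), and of 16 astrocyte markers Gfap (-0.44), Slc4a4 (-0.21), Slc1a2 (-0.20) and Aqp4 (-0.17) fell and Slc7a10 rose (0.18). Gfap and Esam lost the call without control replicate 2, and the value of Gfap was 0.14 in series V, 0.11 without the series A controls with surrogate variables estimated anew and 0.02 with the replicate block. Of 27 ependymal and motile-cilium markers 8 rose (29.6%), among them Pifo (0.82), Enkur (0.80) and Dnah6 (0.74), and none fell, beside 10.2% up over all genes. The rises numbered 5 without control replicate 2 or HttQ111/+ Hdac2 KO replicate 8, 4 in males, and 2 (with 1 fall) in series V. Their summed level was 131 to 198 CPM in the controls and 151 to 242 with both genotypes. Of 19 cortical projection neuron markers Rspo1, Tshz2, Cux2 and Ntng2 rose by 0.30 to 0.39, with summed levels of 539 to 626 and 535 to 594 CPM. The choroid plexus marker Ttr lay at 0.235 to 170 CPM in the controls and 0.57 to 104 with both genotypes, and 1 of 8 such markers rose (Clic6, 0.28). The part of these cells in the changes above was not tested.

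Whether the joint change equals the sum was tested for each gene by the interaction, the joint change minus both single changes on the log2 scale. The control libraries enter the sum 2 times and the joint change 1 time, so the 3 changes are not independent. At an unadjusted p under 0.05 the interaction passed in 959 genes (5.61%), 416 with a joint change above the sum and 543 with one below it, and at an adjusted p under 0.05 in 1. The median interaction over all genes was -0.0026. The SE of the interaction had a median of 0.081, so that its 95% interval reached 0.16 to either side in the median gene. The interval lay within 0.5 of 0 on the log2 scale for 13194 of the 17088 genes (77.2%), and for 3149 of the 3627 called genes (86.8%). For the other genes the interval reached beyond 0.5.

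The single gene past the adjusted threshold was Fibcd1, a receptor that binds acetylated groups such as those of chitin (chromosome 2, 31813290 to 31846005). It lay at 16.6, 18.5 and 26.0 CPM in the controls and at 9.84, 11.9 and 14.5 with both genotypes. The groups did not overlap, and the joint log2 fold change was -0.87 (SE 0.05), beside -0.97 with Hdac2 loss alone and -0.33 with the HttQ111 allele alone. The sum was -1.29, and the joint fall was smaller than the sum by 0.42 (95% interval 0.28 to 0.56, adjusted p = 0.0136). The mean level with both genotypes was 11.9 CPM (SD 1.17, n = 11), where the sum gives 9.69 on the log2 scale and 8.29 on the CPM scale. Over 37 alternatives the interaction kept its sign and ranged from 0.25 to 0.50, and its adjusted p was under 0.05 in 21 and ranged from 6.8e-05 to 0.86. The call was lost with ID series as the covariate (adjusted p = 0.287), in series V alone (0.622), with the replicate block (0.523) and without control replicate 2 (0.433). In the controls Fibcd1 lay at 24.8 to 26.0 CPM in series A and Z and at 16.6 to 18.6 in series V, without overlap, and the groups hold the series in different proportions. The part of the ID series in the interaction was not tested beyond these fits.

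The next 5 genes by p did not pass the adjusted threshold. Dsg2 had an interaction of -0.89 (95% interval -1.27 to -0.51), Wnk4, a kinase that regulates chloride transport, 0.47 (0.25 to 0.70), Ildr2, an immunoglobulin-like receptor, -0.32 (-0.46 to -0.17), Syp -0.19 (-0.27 to -0.11) and Syt5, a vesicle calcium sensor, -0.16 (-0.24 to -0.08). Their adjusted p of 0.37 or more in the fit of all libraries fell below 0.05 in 2 of the 37 alternatives for Syp, 1 for Dsg2, 3 for Ildr2 and none for Wnk4 and Syt5. The measured mean of Dsg2 with both genotypes was 4.00 CPM (SD 0.849, n = 11), against 6.01 from the sum on the log2 scale and 4.74 on the CPM scale. For Syp it was 680 CPM (SD 33.3, n = 11) against 804 and 769. In all 6 genes the joint change had the direction of the single changes and was smaller in size than their sum. These genes were chosen by interaction p from the same libraries, and the control mean enters both single changes and the joint change. Their shared pattern is therefore not evidence about other genes.

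**Figure D3:**
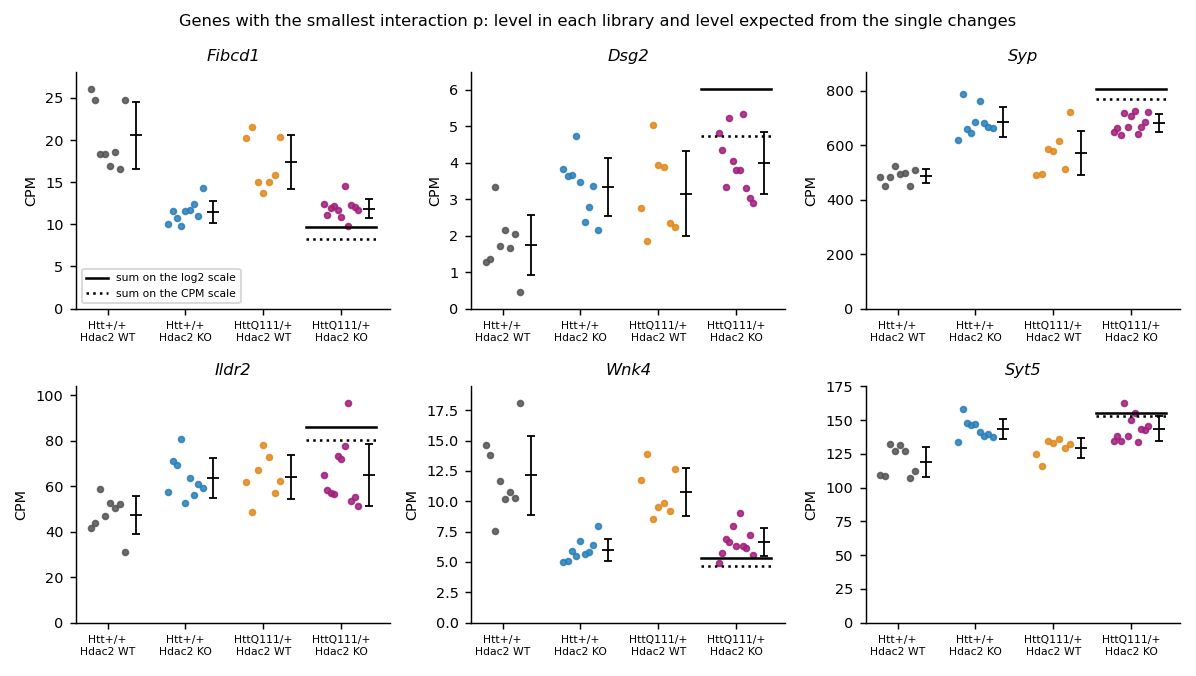
TMM-scaled CPM (vertical axis, from 0) of the 6 genes with the smallest interaction p in each library of the 4 genotype groups, with the mean and SD. The solid and dotted lines over the HttQ111/+ Hdac2 KO libraries mark the level that the sum of the single changes gives on the log2 scale and on the CPM scale; the mean of Fibcd1 (11.9 CPM) lies above both lines and that of Syp (680 CPM) below both.

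Among the medium-spiny neuron genes the median joint change was smaller than the median sum, a difference that was not tested. The median of the 44 genes was -0.24 for the joint change, -0.17 for Hdac2 loss alone, -0.17 for the HttQ111 allele alone and -0.30 for the sum, and the median interaction was 0.08 beside -0.0026 over all genes. Hdac2 loss alone called 18 of the 44 down and the HttQ111 allele alone 5, against 29 with both. The groups held 9, 7 and 11 mice, so these counts also depend on group size. The summed level of the list was 25707 to 30579 CPM with Hdac2 loss alone and 22132 to 29934 with the HttQ111 allele alone. With both it was 22683 to 29062. The interaction had an unadjusted p under 0.05 in 8 of the 44 (18.2%), 6 above the sum and 2 below, beside 5.61% of all tested genes. It had an adjusted p under 0.05 in none of the 44, and the difference in shares was not tested. Rgs14 changed by -0.85 with Hdac2 loss, -0.29 with the HttQ111 allele and -0.95 with both, an interaction of 0.18 (95% interval -0.05 to 0.41). Scn4b changed by -0.39, -0.36 and -0.62, an interaction of 0.14 (-0.12 to 0.40). Both intervals hold 0.

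**Figure D4:**
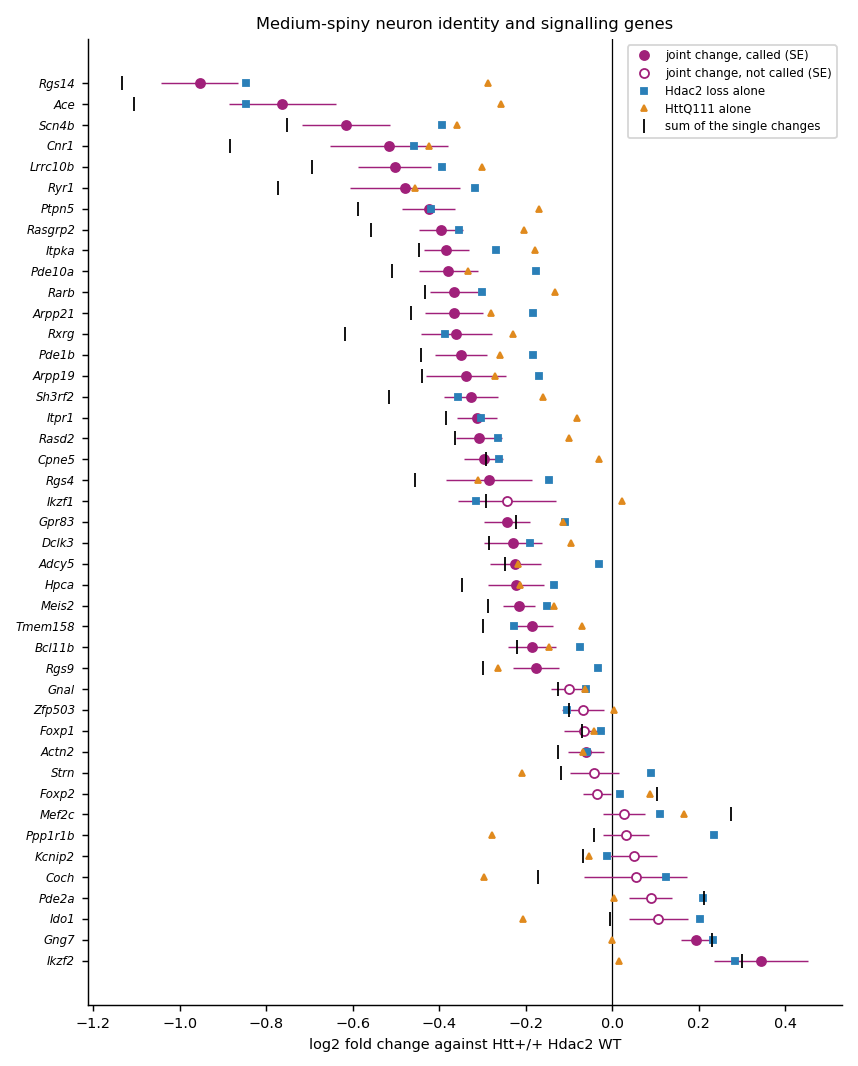
Log2 fold change against Htt+/+ Hdac2 WT (horizontal axis) of the medium-spiny neuron genes reported here: the joint change with its SE (circles, filled where called), Hdac2 loss alone (squares), the HttQ111 allele alone (triangles) and the sum of both single changes (black ticks). Rgs14, Ace and Scn4b are at the top with joint changes of -0.95, -0.76 and -0.62, and their sums lie at -1.13, -1.10 and -0.75.

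The leading genes are set here beside their values in the single genotypes. For Wdr86, Chrnb4, Vwa5b2 and Clec12a the change with Hdac2 loss alone was 2.95, 2.38, 1.41 and -1.85 and that with the HttQ111 allele alone -0.10, 0.18, 0.30 and -0.23. Their interactions were -0.08 (95% interval -0.65 to 0.49), 0.15 (-0.48 to 0.78), -0.13 (-0.43 to 0.16) and 0.21 (-0.12 to 0.55). Penk had -0.16 for Hdac2 loss alone, -0.50 for the HttQ111 allele alone and -0.53 for both, an interaction of 0.13 (-0.12 to 0.39). Adora2a had -0.13, -0.32 and -0.30. Frem3 changed by 3.66, 1.14 and 3.34, so that its joint change was below the sum by 1.46 (95% interval -2.21 to -0.71 for the interaction, unadjusted p = 4.1e-04, adjusted p = 0.547). The Penk value for Hdac2 loss alone was -0.047 with only the HttQ111 mice of 120 or more repeats in the fit. With only those under 120 it was -0.025, so the value of -0.16 varied with the fit. The Penk interaction varied too. In the quasi-likelihood test it was 0.28 with the longer-repeat mice (unadjusted p = 9.5e-04, adjusted p = 0.158). With the shorter-repeat mice it was 0.06 (unadjusted p = 0.43, adjusted p = 0.919).

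The 11 HttQ111/+ Hdac2 KO mice fell into 6 with 110 to 118 CAG repeats, of series A and Z, and 5 with 131 to 144, all of series V, so repeat length and ID series cannot be told apart within them. Penk lay at 1520, 1578 and 1729 CPM in the first 6 and at 1139, 1287 and 1302 in the other 5, with no overlap. In the HttQ111/+ Hdac2 WT mice it lay at 1170 to 1674 CPM in 4 mice of 110 to 113 repeats and at 994 to 1117 in 3 mice of 131 to 140. In the controls the range was 1799 to 2046 CPM in series A and Z and 1780 to 2072 in series V, which overlap. Htt lay at 171 to 184 CPM with shorter repeats and at 120 to 162 with longer ones in the HttQ111/+ Hdac2 KO mice, but at 182 to 189 and 183 to 190 in the HttQ111/+ Hdac2 WT mice. Scn4b lay at 1608 to 2106 and 1171 to 1788 CPM with both genotypes, with overlap. The median change of the medium-spiny neuron list was -0.15 against the controls with the shorter-repeat HttQ111 mice alone (3 up, 15 down) and -0.32 with the longer-repeat mice alone (2 up, 30 down); no test was made of this difference.

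**Figure D5:**
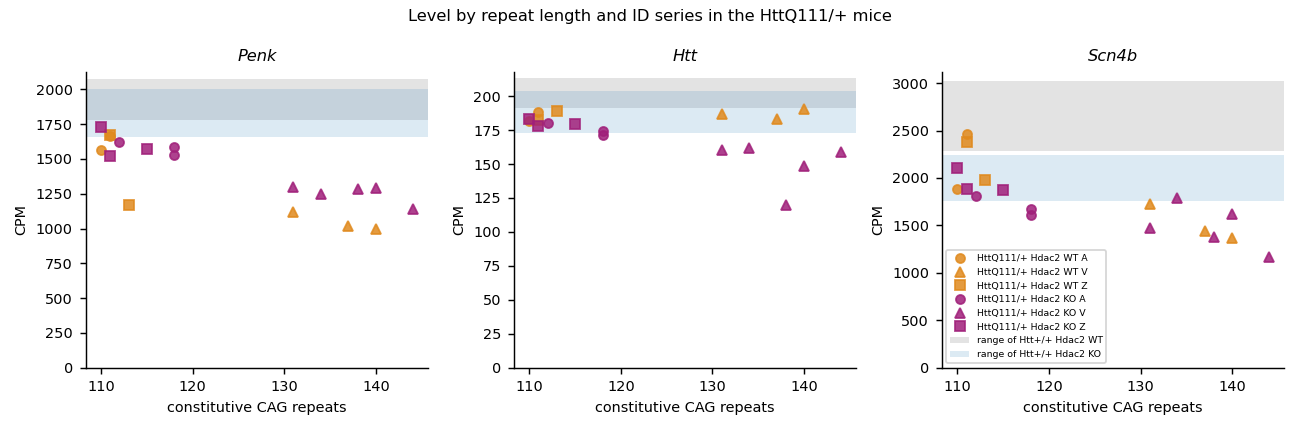
TMM-scaled CPM (vertical axis, from 0) of Penk, Htt and Scn4b against the constitutive CAG repeat number in the HttQ111/+ mice, 1 point per mouse, with the symbol giving the ID series and shaded bands giving the range of the Htt+/+ groups. Penk lies at 1520 to 1729 CPM in the HttQ111/+ Hdac2 KO mice under 120 repeats and at 1139 to 1302 in those above, below the control range of 1780 to 2072.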

How the data were processed

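RNA of striatum was sequenced from 35 mice, 1 library each. Per the labels and the study's methods, the authors made stranded mRNA libraries with ERCC spike-ins, aligned reads to GRCm38 (Ensembl 75) with GSNAP 2015-06-23 and deposited raw counts per gene, taken by bedtools multibamcov on unique alignments over whole gene intervals; strand use in the counting is not given in the sources used here. From the 39109 entries, 92 spike-ins, 6152 genes spanning at most 250 bases and 2 mitochondrial rRNA genes were left out here. Counts were tested with edgeR 4.0.16 (R 4.3.3): TMM scaling, 9 surrogate variables from sva 3.50.0 over all 35 libraries, the quasi-likelihood test and Benjamini-Hochberg adjustment over 17088 genes. Every adjusted p in the text is from this test unless another tool is named. Interaction is the joint change minus both single changes, with 95% intervals from its SE. The first surrogate variable followed sex (R² 0.85). Variable 3 had the highest R² with ID series (0.48) and variable 5 the highest with genotype group (0.34). The fitted changes are therefore adjusted for variables that share variance with the groups.

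Groups came from the genotype labels. Alternatives were other covariates, subsets of libraries, filters, DESeq2 1.42.0 and limma-voom 3.58.1. Only the main quasi-likelihood fit was run on simulated data. The fits without the series A controls with the surrogate variables kept, or split at 120 CAG repeats, were chosen after seeing the data. Genes named are the 12 largest rises and falls and the 6 smallest interaction p at a log2 CPM of at least 1, Hdac2, Hdac1 and Htt, the 2 largest rises and falls of each list, and the highest-level member of lists that did not move; further list members are named from the lists after their values were seen, and a few genes are not reported here. The comparison and the lists were chosen with earlier results of these data known. The mice are separate animals, and totals of 52718817 to 77867348 counts in the 19 libraries leave counting error small for all but the lowest genes.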

Additional observations from a re-analysis of the deposited data

Results flagged for a closer look

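Of the 163 named genes, 14 (8.59%) had 1 control library that stood apart from the other 7 by Dixon's rule, where chance gives about 1 gene in 20; the 11 HttQ111/+ Hdac2 KO libraries are too many for that rule. Htt+/+ Hdac2 WT replicate 9 was the highest control for Gng7 (2265 CPM), Adcy1 (181 CPM), Ebp (17.5 CPM), Ndufa8 (78.7 CPM), Ndufv3 (61.5 CPM) and Atp5b (1354.8 CPM). Replicate 8 was the highest for Gabrr2 (1.65 CPM), Adcy9 (72.4 CPM) and Kat2b (41.2 CPM) and the lowest for Sirt5 (7.80 CPM). Replicate 2 was the highest for Npbwr1 (1.46 CPM), Ccdc82 (14.4 CPM) and Tshz2 (15.5 CPM), and replicate 1 for Htr1b (171 CPM).

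Fibcd1 stood out because the effect of one genotype differed with the other, by a test of the difference itself: its interaction was 0.42 on the log2 scale, with an adjusted p of 0.0136 in edgeR's quasi-likelihood test. With ID series as the covariate the value was 0.36 (adjusted p = 0.287), and the control libraries of series A and Z (24.8 to 26.0 CPM) did not overlap those of series V (16.6 to 18.6 CPM).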

How the results depend on the processing

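Called genes (3627, of which 1747 up and 1880 down) numbered 798 (416 up, 382 down) with extraction date as the covariate, 2309 (1090, 1219) in males, 5619 (3020 down) with the 19 libraries' own surrogate variables, 2380 (1154, 1226) without both series A controls, the surrogate variables kept, 1903 (990, 913) with HttQ111 mice under 120 repeats and 1162 up with those of 120 or more. With ID series, sex and ID series, and without the series A controls with new surrogate variables it was 4617, 4587 and 4975. Leaving out 1 library gave 2445 to 3701 called, 1175 to 1800 up and 1270 to 1907 down, lowest without Htt+/+ Hdac2 WT replicate 2, which ended 34 named calls. Genes with an interaction at an unadjusted p under 0.05 (959) numbered 1583 with sex and ID series, 1665 with ID series, 1485 with the replicate block, 1469 without the series A controls with new surrogate variables, 1472 without a count filter, 1498 without the series A controls and 1707 with 120 or more repeats, and 864 to 1243 leaving out 1 library. Past the adjusted threshold (1, Fibcd1) were 5 with sex and ID series, 7 with ID series, 3 with DESeq2, 10 with 120 or more repeats, and 0 with no surrogate variables, sex, extraction date, the replicate block, males, series V, no series A controls with new surrogate variables, no count filter, a 1 CPM filter and no series A controls; leaving out 1 library gave 0 to 1, with 0 without Htt+/+ Hdac2 WT replicate 2 or HttQ111/+ Hdac2 KO replicate 7. All these edgeR or DESeq2 counts of 0 stand beside the unadjusted counts above or, for the rest, 743 to 1186. Deviations from the group mean of same-numbered mice of the 2 groups correlated at 0.032 to 0.30, with 6 of 8 over 0.1. Between differently numbered mice the median correlation was -0.023. All 8 same-numbered pairs also shared the ID series, so these values do not separate number from series. The fit of all libraries did not use the numbers as pairs, and the replicate block in place of surrogate variables called 3962 genes.

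Of 3253 values of named genes under the other settings, 2731 kept direction and call, 474 lost the call (89 of 163 genes with extraction date), 33 gained it and 14 changed sign: Ccdc82 with extraction date (0.0542), Dnajb5 with sex and ID series (-0.0512), ID series (-0.0433), the replicate block (-0.000794) and series V (-0.26), Gabrr2 with sex (-0.00129) and extraction date (-0.15), Gfap with the replicate block (0.01615), series V (0.14) and without the series A controls with new surrogate variables (0.11), Npbwr1 in series V (0.21), Trib1 with ID series (-0.00272) and in series V (-0.24), and Upb1 in series V (-0.15). The cause was not tested. None changed sign on leaving out 1 library, and 112 of 3097 such values lost the call.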

Other observations

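With the 5 HttQ111/+ Hdac2 KO and 3 HttQ111/+ Hdac2 WT mice of 120 or more repeats as the only HttQ111 mice, 10 genes passed the adjusted threshold of the interaction in edgeR's quasi-likelihood test: Slc9a5, a sodium-proton exchanger (0.48, adjusted p = 0.0011), Pcdhb16 and Pcdhb14, clustered protocadherins (-0.53 and -0.54), Ccm2, a vascular signalling scaffold (0.31), Gabra3 (-0.35), Gm12184 (0.49), Frem3 (-2.14), Syp (-0.26), 2010001M06Rik (0.82) and Wnt4, a secreted signal (1.09). Fibcd1 had 0.50 there (adjusted p = 0.0529), and Ildr2 was the only gene to pass with the shorter-repeat mice (-0.45, adjusted p = 0.0236). Both settings were chosen after seeing the data, and each rests on few mice that differ in ID series as well as repeat length.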
